A study of Sus scrofa with 12 samples.

Results

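Smooth muscle contractile genes were followed in the ileal mucosa of 12 pigs. The group was set as 10 genes by symbol: MYH11, ACTA2, ACTG2, DES, TAGLN, CNN1, MYLK, NEXN, SYNM and LMOD1. The platform's probe-to-gene table named 16 of the 47845 probe sets for 9 of them, and CNN1 is not analysed here. Each gene was read from its probe set of highest mean over all 12 arrays, with its other probe sets beside it. Of the 16 probe sets, 14 passed the filter on low signal, and at least 1 passed for each of the 9 genes.

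The animals were pigs (Sus scrofa) aged 140 days, grouped as high or low in feed efficiency, the gain in body mass from a given amount of feed. Each group had 6 pigs, of which 3 were male and 3 female. The labels name no treatment, diet or breed. Total RNA of each pig was read on its own 1-colour Affymetrix array of a pig design named Snowball, and values are the deposited log2 signals, so that a difference of 1 is a doubling. High pigs 1 to 3 and low pigs 1 to 3 were male and pigs 4 to 6 of each group were female.

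Smooth muscle contracts when calcium activates myosin light chain kinase, which phosphorylates myosin and lets the thick filaments pull on actin filaments. Actin-binding proteins tune those filaments, and intermediate filaments tie the contractile units to each other and to the cell membrane. In the gut, smooth muscle forms the muscle layers of the wall, the thin muscularis mucosae that borders the mucosa, strands within the villi, and the walls of blood vessels. In whole-tissue RNA, fewer cells of a type and less RNA per cell cannot be told apart.

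The 12 arrays correlated with each other at r between 0.852 and 0.973 (median 0.948). High pig 1 stood apart. Its median r with the other arrays was 0.899, its hybridization controls averaged 11.02 against 10.26 to 10.62 on the other arrays, and the summed level of 17 epithelial markers was 12.57 in log2 against 13.94 to 14.99. High pig 3 was next, with a median r of 0.93. Values are therefore also given without these pigs where they matter. Pig identifiers fall in a lower range of 8 pigs, which holds all 6 males and 2 females, and a higher range of 4 females. No other batch is recorded.

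Between feed efficiency groups, no smooth muscle gene passed the test. The difference, high minus low with a term for sex, was above 0 for 7 of the 9 genes and below 0 for ACTA2 and LMOD1. The median over the 9 was 0.23 in log2, beside -0.01 over all 12195 genes, of which 47.5% were above 0. None of the 14 member probe sets had an adjusted p under 0.05 in limma with Benjamini-Hochberg adjustment over 33405 probe sets, where 0% were called, and 1 had an unadjusted p under 0.05, where 3.17% of all did. The groups overlapped for all 14, and 0.0928% of all probe sets had groups that did not.

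**Figure D1:**
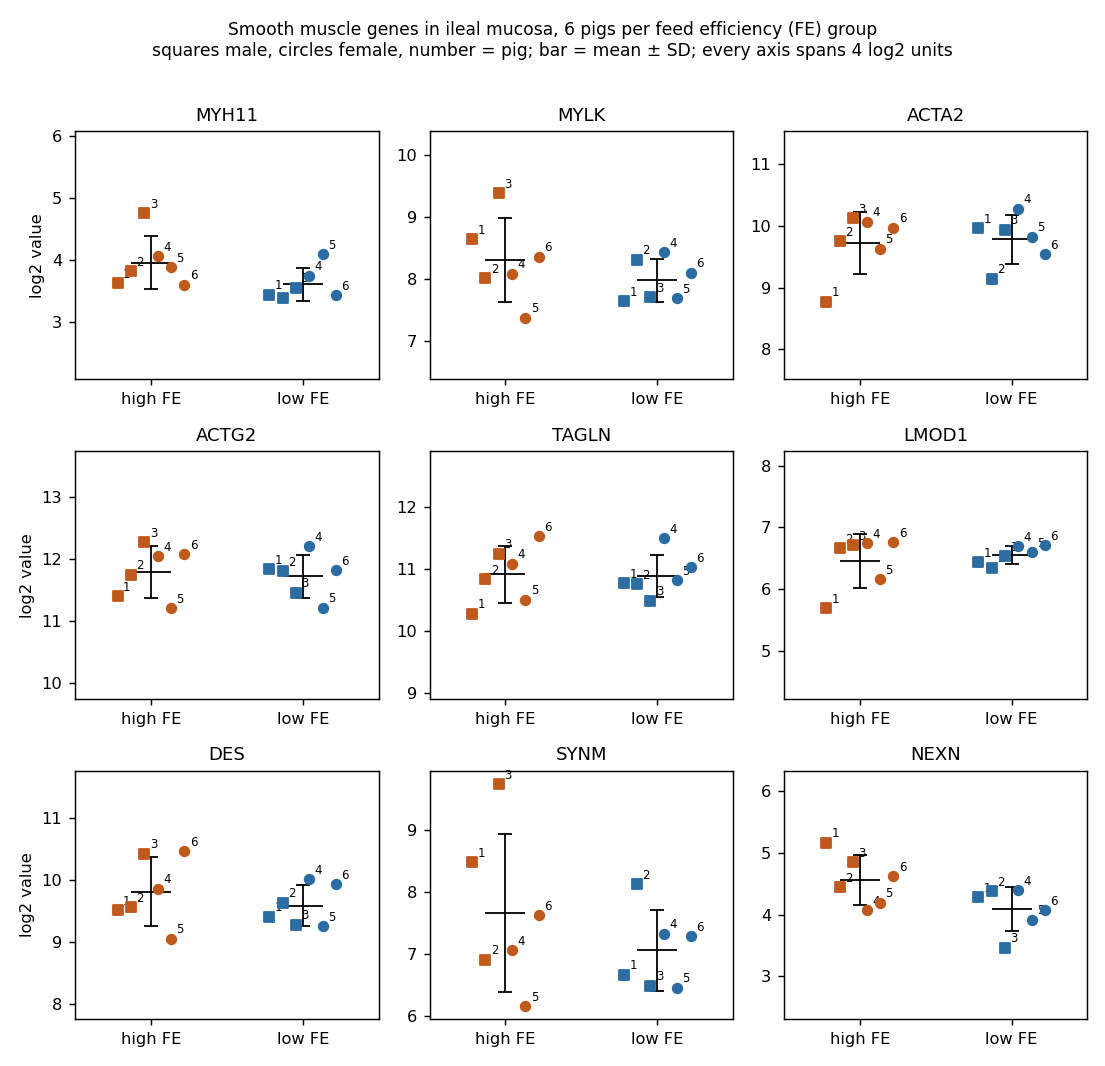
Log2 value of each of the 9 measured genes (vertical axis, every panel spanning 4 log2 units) in each pig, by feed efficiency group (FE, horizontal axis); squares are males, circles are females, numbers are pigs, and bars are the mean ± SD of 6 pigs. The groups overlap in every panel, and SYNM is spread widest, from 6.16 in high pig 5 to 9.74 in high pig 3.

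MYH11 encodes the smooth muscle myosin heavy chain, the motor of the thick filament. Its values ran from 3.61 to 4.76 with a median of 3.86 in the high group, and from 3.40 to 4.09 with a median of 3.50 in the low group. The highest value was that of high pig 3, and the other high pigs lay within the range of the low group. The difference was 0.35 ± 0.20 (SE, n = 6 per group, limma unadjusted p = 0.11, adjusted p = 0.999), and it was 0.17 without high pig 3. The mean signal of this probe set was at the 10.7th percentile of the 12195 genes tested, each read from 1 probe set. It averaged 3.79, and the 69 background control probe sets averaged 3.58 to 3.83 on the 12 arrays, so the mean signal for MYH11 was within the range of theirs, which limits what its difference and correlations show. Single background sets ran from 1.22 to 7.74 with a median of 2.61, so their averages are pulled up by the highest sets.

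MYLK encodes the light chain kinase. It ran from 7.38 to 9.39 (median 8.22) in the high group and from 7.64 to 8.44 (median 7.90) in the low group. The high group held both the lowest and the highest pig, pig 5 and pig 3. The difference was 0.33 ± 0.28 (SE), with a 95% interval of -0.28 to 0.95. The other MYLK probe set gave -0.0050 ± 0.26, and without high pig 3 the first gave 0.12.

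The actins ACTA2 and ACTG2 form the thin filaments, ACTG2 being the form typical of gut muscle and ACTA2 that of vessels and myofibroblasts as well. ACTA2 ran from 8.77 to 10.12 (median 9.86) in the high group and from 9.15 to 10.27 (median 9.88) in the low group. ACTG2 ran from 11.20 to 12.27 (median 11.89) and from 11.21 to 12.20 (median 11.81). High pig 1 was the lowest of all for ACTA2, and the high group spanned nearly the same range as the low group for ACTG2. The differences were -0.06 ± 0.24 (SE) for ACTA2 and 0.07 ± 0.22 for ACTG2. For ACTA2 the sign turned without high pig 1, to 0.12, and for ACTG2 without high pig 3, to -0.04. Actin genes have nearly the same coding sequence, so a probe set may also read a related actin. The skeletal and cardiac actins had group means of 6.29 (high) and 6.33 (low) for ACTA1 and of 8.74 and 8.69 for ACTC1.

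TAGLN encodes transgelin, a small actin-binding protein of smooth muscle, LMOD1 a leiomodin that starts new actin filaments, and NEXN an actin-binding protein of cell contacts and striated muscle. TAGLN ran from 10.27 to 11.52 (median 10.96) in the high group and from 10.48 to 11.49 (median 10.79) in the low group. LMOD1 ran from 5.70 to 6.76 (median 6.69) and from 6.35 to 6.71 (median 6.57). For both genes high pig 1 was the lowest pig and high pig 6 the highest. The differences were 0.02 ± 0.21 (SE) for TAGLN and -0.10 ± 0.18 for LMOD1. Without high pig 1 the LMOD1 difference was 0.05, and without high pig 3 that of TAGLN was -0.09.

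NEXN was the member with an unadjusted p under 0.05. It ran from 4.07 to 5.16 (median 4.54) in the high group and from 3.47 to 4.40 (median 4.17) in the low group. High pigs 1, 3, 6 and 2 were the 4 highest of the 12, and high pigs 4 and 5 lay inside the low range. The difference was 0.47 ± 0.21 (SE, 95% interval 0.02 to 0.92, limma unadjusted p = 0.0413, adjusted p = 0.999). With 1 pig left out in turn it ran from 0.31 without low pig 3 to 0.57 without low pig 4. High pigs 1 and 3, the highest and next highest for NEXN, were also the pigs that stood apart among the arrays. The only other NEXN probe set that passed the filter gave 0.02 ± 0.28 and correlated with the first at r = -0.357 over the 12 pigs (permutation test, adjusted p = 0.419). It averaged 3.02, below the background control averages of 3.58 to 3.83 but above the median of single background sets, 2.61. Its low signal limits what it shows about the first.

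DES and SYNM encode desmin and synemin, intermediate filament proteins that join in the same filaments. DES ran from 9.05 to 10.46 (median 9.70) in the high group and from 9.25 to 10.01 (median 9.52) in the low group. High pigs 6 and 3 were the highest for DES and high pig 5 the lowest. The DES difference was 0.23 ± 0.25 (SE), and 0.16 ± 0.31 with its other probe set. SYNM ran from 6.16 to 9.74 (median 7.34) in the high group and from 6.45 to 8.12 (median 6.97) in the low group. Here too the high group held both ends of the range. The SYNM difference was 0.61 ± 0.49, with a 95% interval of -0.47 to 1.68. Its other probe set, with a mean signal of only 3.01, gave 0.16 ± 0.26. The SYNM difference was 0.23 without high pig 3 and -0.11 without high pigs 1 and 3 together, a choice made after the values were seen.

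**Figure D2:**
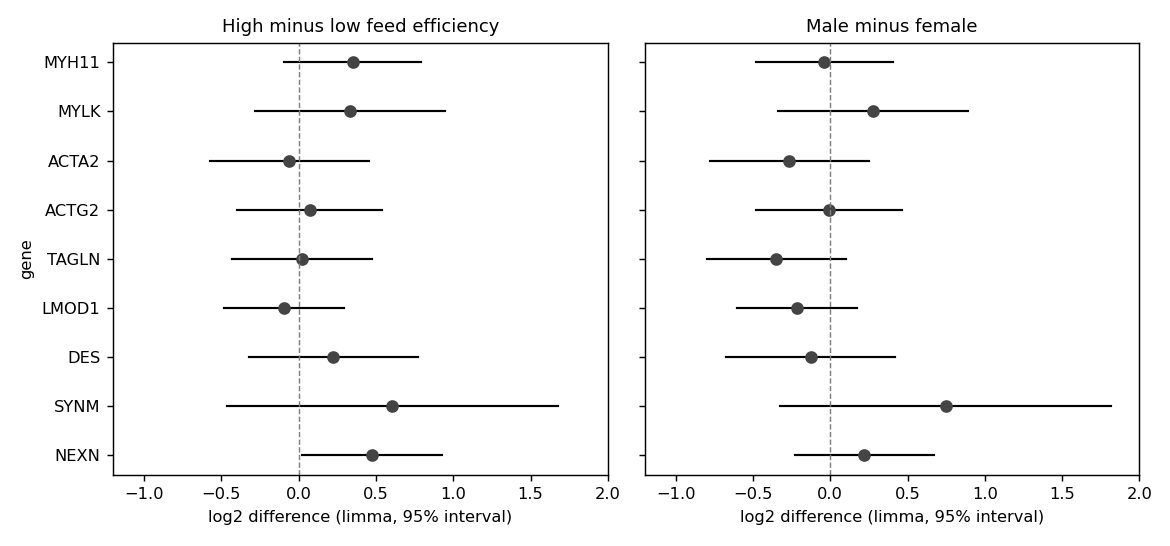
Log2 difference of each gene (horizontal axis) for high minus low feed efficiency and for male minus female, from the limma fit on 12 pigs; points are the estimates and lines the 95% intervals. Intervals cross 0 in both panels except that of NEXN for feed efficiency, from 0.02 to 0.92, and the SYNM interval is the longest.

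Taken by sex, the feed efficiency difference of several genes lay mostly with the males. It was 1.29 in males and -0.07 in females for SYNM, 0.80 and -0.13 for MYLK, 0.78 and 0.17 for NEXN, and 0.61 and 0.09 for MYH11. The difference between the sexes was itself tested and no member passed (limma adjusted p = 0.9996 for each). The SYNM difference between the sexes was 1.36 ± 0.94 (SE, unadjusted p = 0.177). The other SYNM probe set gave 1.21 ± 0.41 (SE, limma unadjusted p = 0.0132, adjusted p = 0.9996). That set averaged 3.01, below the background control averages of 3.58 to 3.83 but above the median of single background sets, 2.61. Its low signal limits what it shows. It was the 1 of 14 with an unadjusted p under 0.05, which 2.76% of all probe sets had. The males of the high group include high pigs 3 and 1, which had the highest and next highest SYNM and MYLK of all 12 pigs. Among the 4 pigs of the higher identifier range, all female, the difference was 0.02 for SYNM and -0.03 for MYLK, and among the 8 of the lower range it was 0.90 and 0.51.

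Males and females also overlapped for all 14 probe sets, where 2.18% of all probe sets did not. With feed efficiency as a term, 3 genes were above 0 and 6 below 0 for male minus female, where 44.4% of all genes were above 0. The largest differences were 0.75 ± 0.49 (SE) for SYNM, -0.35 ± 0.21 for TAGLN, 0.28 ± 0.28 for MYLK and -0.27 ± 0.24 for ACTA2. Adjusted p-values from limma ran from 0.389 for TAGLN to 0.989 for ACTG2, and none of the 14 probe sets had an unadjusted p under 0.05, against 19% of all probe sets. Only 0.0329% of all probe sets had an adjusted p under 0.05.

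Single pigs differed widely in these genes. The SD over 12 pigs was 1.02 for SYNM, at the 98.7th percentile of the 12195 genes, and the pigs at its ends differed by 12-fold. It was 0.54 for MYLK, and the median over the 9 genes was 0.43 beside 0.30 over all genes. For SYNM the SD was 1.27 in males and 0.56 in females.

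Seen by pig, high pig 3 was above the mean of all 12 in each of the 9 genes, from 0.20 for LMOD1 to 2.38 for SYNM. High pig 6 was above it in 8 and low pig 4 in 7. At the other end, high pig 5 was above the mean in MYH11 alone, and low pigs 1 and 3 in 2 genes each. High pig 1 was split. It had the highest NEXN (0.84 above the mean) and the next highest SYNM (1.12) and MYLK (0.50), but the lowest ACTA2 (-0.97), LMOD1 (-0.81) and TAGLN (-0.62). Low pig 2 had the same kind of split, behind high pigs 3 and 1 alone for SYNM and above high pig 1 alone for ACTA2. Epithelial markers were lowest of all pigs in high pig 1 (12.57) and within the range of the others in low pig 2 (14.42). Their part in the split was not tested.

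**Figure D3:**
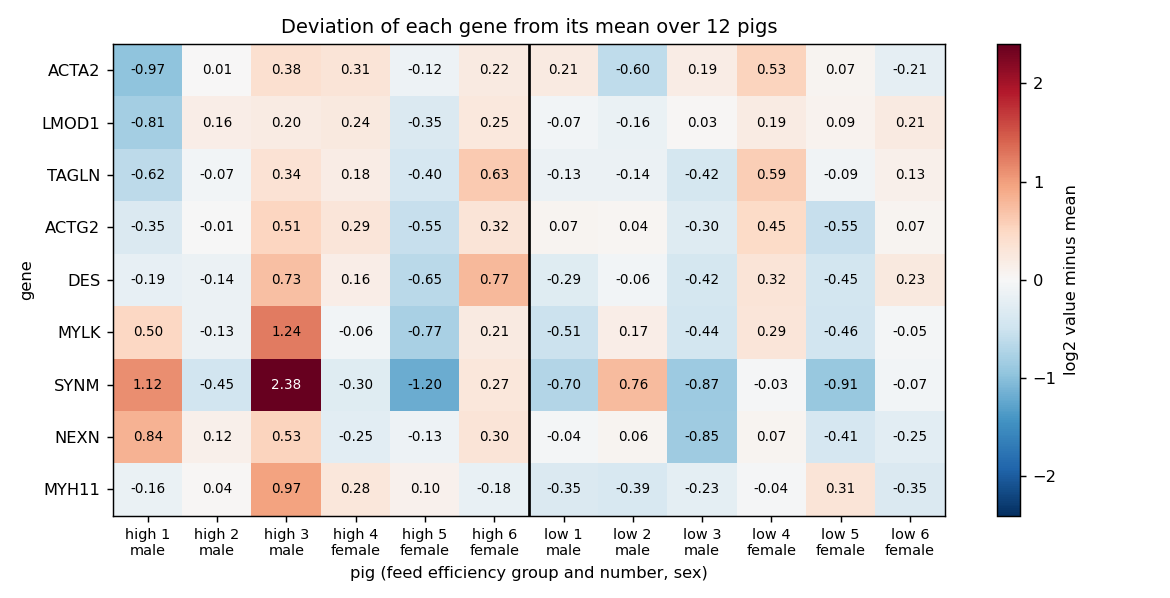
Log2 value minus the gene's mean over 12 pigs (colour and printed number) for each gene (vertical axis) and pig (horizontal axis, high group left of the line and low group right). High pig 3 is above the mean in all 9 genes, and high pig 1 is low for ACTA2, LMOD1 and TAGLN and high for SYNM, NEXN and MYLK.

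Levels of the 9 genes were correlated over the 12 pigs in all 36 pairs. Pearson's r was above 0 in 31 pairs with a median of 0.44, and 9 pairs (25% of the 36) had an adjusted p under 0.05, or 13 by Spearman's rho (permutation test with 100000 resamples, two-sided, adjusted over the 36). Over all 12 pigs the r of SYNM, MYLK and NEXN with each other was high, as was that of ACTA2 with LMOD1, while across these groups it was low, and DES, ACTG2 and TAGLN lay between. The low values across the groups depend on single pigs. They rose without high pig 1, to between 0.086 and 0.552, and fell without high pig 3, to between -0.611 and -0.11.

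The closest pair was MYLK with SYNM, at r = 0.965 and rho = 0.951 (permutation p = 1e-05, the smallest it can give, adjusted p = 0.00036 for each). The r was 0.909 without high pigs 3 and 5, 0.957 in the lower identifier range, 0.983 in males and 0.96 in females. NEXN followed both, at r = 0.74 and rho = 0.748 with SYNM (permutation p = 0.00584 and 0.00683, adjusted p = 0.0263 and 0.028) and r = 0.71 and rho = 0.699 with MYLK (permutation p = 0.0114 and 0.0142, adjusted p = 0.0456 and 0.0394). Without the pair of pigs farthest from the median these were 0.766 and 0.779. In the lower identifier range they were 0.747 and 0.722.

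Among the genes between, ACTG2 went with DES at r = 0.876 and rho = 0.881 (permutation p = 0.00031 and 0.00037, adjusted p = 0.00558 and 0.00444). TAGLN went with DES at r = 0.837 and rho = 0.818 (permutation p = 0.00069 and 0.00174, adjusted p = 0.00763 and 0.0155) and with ACTG2 at r = 0.824 and rho = 0.811 (permutation p = 0.00106 and 0.00215, adjusted p = 0.00763 and 0.0155). Without the 2 farthest pigs the r of these 3 pairs was 0.819, 0.762 and 0.921, and in the lower identifier range 0.873, 0.792 and 0.961. DES also went with MYLK, at r = 0.777 and rho = 0.783 (permutation p = 0.00238 and 0.00398, adjusted p = 0.0143 and 0.0239). That r was 0.709 without high pigs 3 and 6 and 0.825 in the lower range.

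TAGLN also went with LMOD1 at r = 0.784 and rho = 0.895 (permutation p = 0.00096 and 0.00026, adjusted p = 0.00763 and 0.00444), with 0.837 without low pig 4 and high pig 6 and 0.765 in the lower range. ACTA2 went with LMOD1 at r = 0.804 and rho = 0.622 (permutation p = 0.00483 and 0.0348, adjusted p = 0.0248 and 0.0896). That relation rests on its extreme pigs: r was 0.545 without high pig 1 and 0.405 without high pig 1 and low pig 2, and it was 0.891 in the lower range, which holds both.

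ACTA2 and LMOD1 had an r near or below 0 with SYNM, MYLK and NEXN, and none was called. ACTA2 had an r of -0.192 with SYNM (rho 0.056, permutation p = 0.544, adjusted p = 0.612), -0.02 with MYLK and -0.363 with NEXN, and LMOD1 had -0.08, 0.07 and -0.39 with the same genes. These too depend on single pigs. Without high pig 1 ACTA2 had 0.086 with SYNM, 0.278 with MYLK and 0.121 with NEXN, and LMOD1 had 0.367, 0.552 and 0.207. Without high pig 3 ACTA2 had -0.611, -0.335 and -0.526 with the same genes, and LMOD1 had -0.35, -0.11 and -0.516. Within females ACTA2 had an r of 0.437 with SYNM and 0.643 with MYLK, and LMOD1 had 0.843 and 0.858. Within males ACTA2 had -0.196 and -0.112 and LMOD1 -0.146 and -0.0675, over 6 pigs each. MYH11, at the level of the background control averages, was called with no other member, and its r with MYLK fell from 0.466 to -0.255 without high pig 3.

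**Figure D4:**
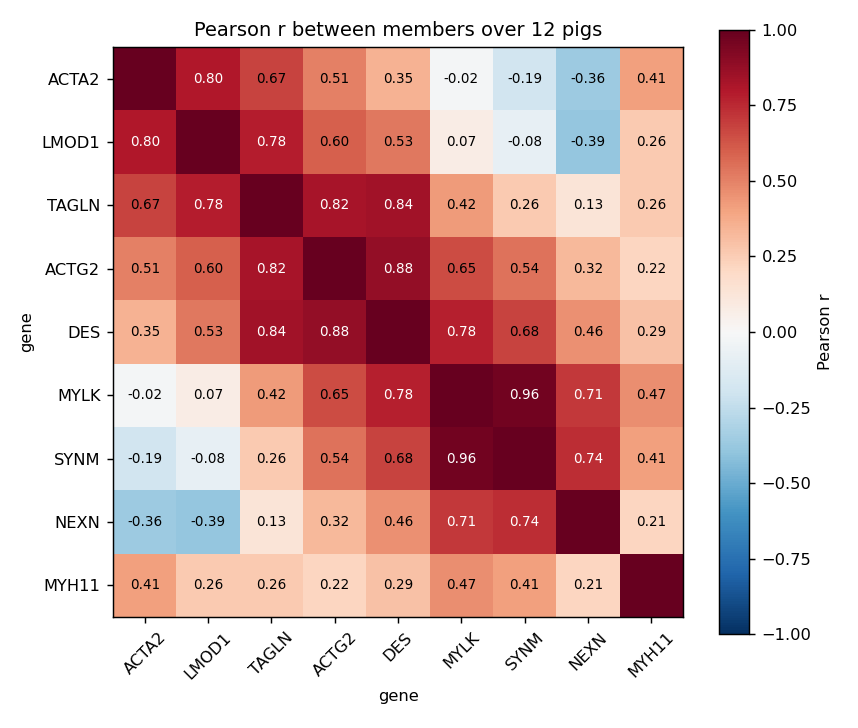
Pearson r over 12 pigs between each pair of the 9 genes (colour and printed number, genes on both axes). MYLK with SYNM is highest at 0.965, a middle group of TAGLN, ACTG2 and DES is above 0.8, and ACTA2 and LMOD1 are below 0 with NEXN.

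**Figure D5:**
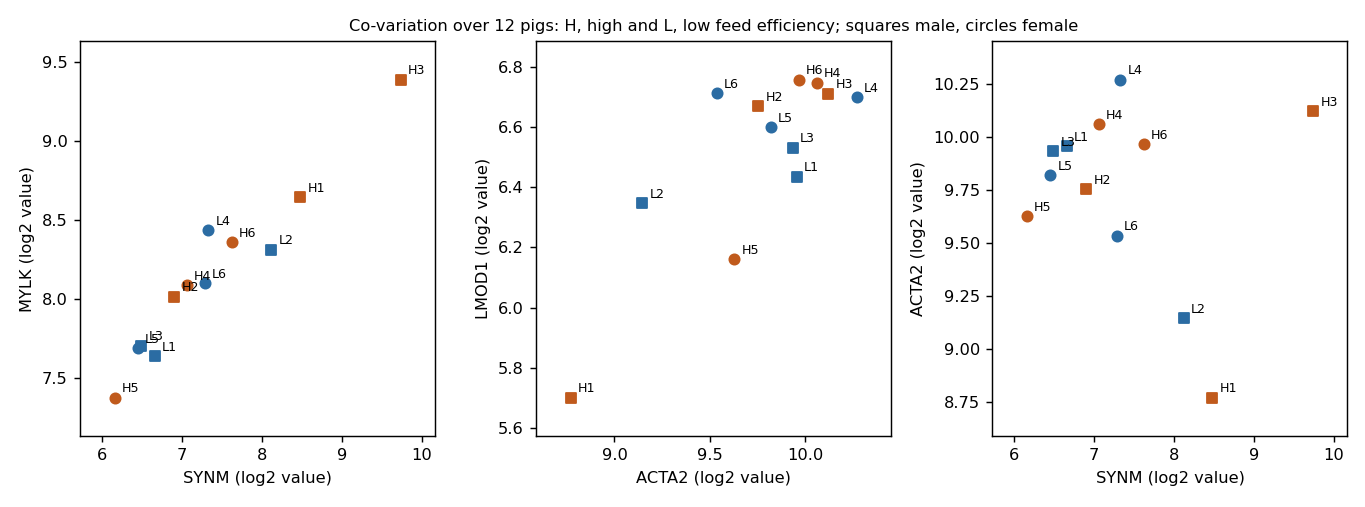
Log2 values of 3 pairs of genes in each of 12 pigs (H high and L low feed efficiency, squares males, circles females): MYLK against SYNM, LMOD1 against ACTA2 and ACTA2 against SYNM. The first pair rises together through all pigs, the LMOD1 pair is stretched by high pig 1 (H1), and in the last panel H1 and L2 have low ACTA2 at high SYNM.

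Where a gene had several probe sets, these followed each other for 4 of 5 genes. The r over 12 pigs was 0.982 for ACTA2 and 0.955 for DES (permutation adjusted p = 5e-05 each), 0.873 for SYNM (adjusted p = 0.00297) and 0.774 for MYLK (adjusted p = 0.0131). By rho they were 0.965, 0.93, 0.804 and 0.531, of which that of MYLK was not called (adjusted p = 0.197), and r without the farthest pigs was 0.943, 0.917, 0.54 and 0.321. The 4 NEXN probe sets had no called pair, with r between -0.448 and 0.20. The set used averaged 4.32 and the others 3.02, 1.99 and 1.44, below the background control averages of 3.58 to 3.83. The set at 3.02 lay above the median of single background sets, 2.61, and the set used was itself not far above the averages. At such low signal the others cannot show whether the set used is right. The NEXN values above thus rest on 1 probe set.

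The genes most like the members were those of highest mean r with the 9 of them, among 12195 genes with 1 probe set each. Symbols that begin with LOC, SSC or ENSS, placeholders for genes without a name, were left out of the genes listed. TSPAN2, a tetraspanin, led with a mean r of 0.677. Next came PLN (0.656), which encodes phospholamban, the brake on the calcium pump of the sarcoplasmic reticulum. Then followed MYOM1 (0.642), a protein of the muscle M band, SOSTDC1 (0.641), a secreted antagonist of BMP and Wnt signals, and DNAJB5 (0.635), a heat shock protein 40 relative. MSRB3 (0.631) reduces oxidized methionine, TIMP3 (0.631) inhibits matrix metalloproteinases, and PDLIM3 (0.629) binds alpha-actinin. TPM1 (0.627), a tropomyosin, and KCNMA1 (0.626), the pore of the large-conductance calcium-activated potassium channel, completed the 10. PLN, TPM1, PDLIM3 and KCNMA1 were also in lists of smooth muscle genes. Each of the 10 followed DES at r between 0.809 and 0.924 and NEXN at 0.677 or less. Over all genes the median was -0.02, and 188 genes were above 0.5. The likeness depends in part on high pig 3. Without that pig the mean r of the 10 genes ran from 0.45 for MSRB3 to 0.549 for TSPAN2. Without high pig 1 it ran from 0.695 to 0.753 for the same genes.

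The 5 genes of lowest mean r were MMP12 (-0.643), a metalloelastase of macrophages, STX11 (-0.636), a syntaxin of immune cell secretion, PRIM1 (-0.609), a DNA primase subunit, ZCCHC4 (-0.607), an RNA methyltransferase, and CCL19 (-0.604), a chemokine of lymphoid tissue. The summed level of 9 lymphocyte and macrophage markers ran against ACTG2 at r = -0.76 and rho = -0.797 (permutation p = 0.00356 and 0.00306, adjusted p = 0.0267 and 0.0207 over 135 pairs of a member and a list). It was -0.685 without high pig 5 and low pig 5 and -0.771 in the lower identifier range. The immune level was lowest in low pig 4 (11.81) and high pig 3 (11.98), which had the next highest and the highest ACTG2, and highest in low pig 5 (13.02) and high pig 5 (12.97), which had the lowest. All 9 members had a negative r with it, from -0.76 to -0.147 for NEXN. Single markers went both ways with ACTG2: the B cell genes CD79A, CD79B and MS4A1, with the largest SDs of the list (1.04, 1.38 and 1.53), had an r of -0.67, -0.63 and -0.628, and the T cell genes CD3E and CD3D 0.255 and 0.146. Whether the share of immune cells in the sample plays a part was not tested.

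SYNM and ACTA2 were then described by their nearest genes, a choice made after the values were seen. Nearest to SYNM were PRUNE2 (r = 0.974), AKAP12 (0.968), an anchoring protein of kinase A, SYNPO2 (0.962), an actin-binding protein of muscle, NPTN (0.935) and CALD1 (0.931), caldesmon. Nearest to ACTA2 were BLVRA (0.948), biliverdin reductase, LRRC28 (0.945), TRIL (0.941), GPR39 (0.935), a zinc-sensing receptor, and SORD (0.935), sorbitol dehydrogenase.

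Other genes of the pathway were read from lists of contractile, anchoring, signalling and regulatory genes and of markers of other cell types, 189 genes in all. Of these, 20 had an r of at least 0.7 with SYNM, where 3.39% of all genes did, and 42 with ACTA2, where 10.1% did. Since SYNM and ACTA2 themselves had an r of -0.192, no gene could be in both counts. Permutation p-values were adjusted over the 378 pairs of a listed gene with SYNM or ACTA2.

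With SYNM went caldesmon, CALD1, which holds back actin and myosin binding (r = 0.931, rho = 0.937, adjusted p = 0.00302, and 0.909 without high pigs 1 and 3). The transcription factor MEF2A (r = 0.909, adjusted p = 0.00378), the dystrophin complex member SSPN (r = 0.903, adjusted p = 0.00459), the cyclic GMP phosphodiesterase PDE5A (r = 0.896, adjusted p = 0.0084) and the kinase PRKCA (r = 0.894, adjusted p = 0.00407) did so too. By rho they were at 0.818, 0.853, 0.874 and 0.769, with adjusted p = 0.0366, 0.0246, 0.0215 and 0.0541, so that PRKCA was not called by rho. Without high pigs 1 and 3 these 4 had an r of 0.721, 0.726, 0.797 and 0.721, and in the lower identifier range 0.954, 0.95, 0.89 and 0.923. SRF, the transcription factor that drives many contractile genes, went the other way (r = -0.709, adjusted p = 0.0454; rho = -0.587, adjusted p = 0.178), but at -0.358 without the same pigs. By list, 3 of 15 genes of the calcium, potassium and cyclic nucleotide list and 4 of 20 of the cytoskeletal links reached an r of 0.7 with SYNM. Of epithelial markers 0 of 17 did and of fibroblast markers 0 of 13, which is near the 3.39% of all genes. Their LGR5 (0.671) and FN1 (0.635) fell just short. The calcium list also held STIM1 and ORAI1, of store-operated calcium entry, which ran against SYNM (r = -0.731 and -0.778, adjusted p = 0.0404 and 0.0301), at -0.416 and -0.399 without high pigs 1 and 3.

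With ACTA2 went KIT, the receptor that marks interstitial cells of Cajal, the pacemaker cells of gut muscle, and mast cells (r = 0.932, rho = 0.895, adjusted p = 0.00302, and 0.88 without high pig 1 and low pig 2). The other 4 markers of those cells had an r with ACTA2 of 0.524 (ANO1), 0.263 (ETV1), 0.0445 (HCN4) and -0.14 (LRIG1), and LRIG1 had 0.782 with SYNM (adjusted p = 0.0278). The matrix genes DPT (r = 0.929) and COL3A1 (r = 0.909) and the myosin light chain MYL6 (r = 0.924) also went with ACTA2. Each had an adjusted p = 0.00302, and their r was 0.809, 0.811 and 0.754 without high pig 1 and low pig 2. The epithelial keratin KRT8 had an r of 0.908 (adjusted p = 0.00378), which was 0.646 without them, and a rho of 0.755 that was not called (adjusted p = 0.0658). By rho DPT, COL3A1 and MYL6 were at 0.944, 0.916 and 0.867 (adjusted p = 0.0113, 0.0139 and 0.023). By list, 10 of 17 epithelial, 6 of 13 fibroblast and 6 of 20 cytoskeletal link genes reached an r of 0.7 with ACTA2. Of the calcium list 0 of 15 did, where 10.1% of all genes did. Immune markers went both ways with ACTA2. PTPRC, the leukocyte antigen CD45, had an r of -0.837 (adjusted p = 0.0113) and the T cell gene CD3D 0.792 (adjusted p = 0.0278), which were -0.448 and 0.449 without those pigs, and neither was called by rho (adjusted p = 0.154 and 0.142).

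Summed levels of the lists were set against the members, and 30 of the 135 pairs of a member and a list (22.2%) had an adjusted p under 0.05. SYNM followed the calcium list at r = 0.818 (rho = 0.804, adjusted p = 0.0267, 0.619 without high pigs 1 and 3). MYLK followed the same list at r = 0.886 (rho = 0.825, adjusted p = 0.00945, 0.755 without high pigs 3 and 5). ACTA2 followed smooth muscle receptors at r = 0.889 (adjusted p = 0.00945), fibroblast markers at 0.851 (adjusted p = 0.0147) and epithelial markers at 0.826 (adjusted p = 0.026). By rho they were 0.692 (adjusted p = 0.0665), 0.90 (0.00621) and 0.783 (0.0224), and r without high pig 1 was 0.795, 0.892 and 0.592. ACTA2 also followed markers of interstitial cells of Cajal (r = 0.844), pericytes and vascular smooth muscle (0.79) and endothelium (0.741). Their adjusted p was 0.00984, 0.0177 and 0.0325, and their rho 0.895, 0.895 and 0.811, each called. Without high pig 1 the r was 0.879, 0.761 and 0.781. Each list also held a marker below 0 with ACTA2: LRIG1 (-0.14), CSPG4 (-0.0177) and PECAM1 (-0.197). Cytoskeletal links (0.751) and other contractile genes (0.721) were called too. LMOD1 followed epithelial markers at r = 0.832 (adjusted p = 0.0478) but was not called by rho (0.58, adjusted p = 0.15). The relation rests on high pigs 1 and 5, since r was 0.262 without them. TAGLN followed epithelial markers at r = 0.658 (adjusted p = 0.0482) but was not called by rho (0.573, adjusted p = 0.159). Without high pig 1 that r was 0.533. SYNM had -0.126 with epithelial markers (rho 0.196) and MYLK -0.03 (rho 0.287), and both signs turned without high pig 1, to 0.423 and 0.508.

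None of the listed genes passed the test between feed efficiency groups (limma adjusted p = 0.9995 or higher for each named here, where 0% of all probe sets were called). Among other contractile and thin filament genes 12 of 14 were above 0, with a median of 0.07 in log2 beside -0.01 over all genes. The tropomyosin TPM4 was at 0.37 ± 0.18 (SE), CALD1 at 0.44 ± 0.34 and the non-muscle myosin MYH10 at 0.16 ± 0.13. In the calcium, potassium and cyclic nucleotide list 13 of 15 were above 0, with a median of 0.19, including the ryanodine receptor RYR2 (0.31 ± 0.25) and the calcium pump ATP2B4 (0.20 ± 0.16). Of smooth muscle receptors 8 of 10 were below 0, with a median of -0.16, such as the substance P receptor TACR1 (-0.51 ± 0.26) and the angiotensin receptor AGTR1 (-0.28 ± 0.19).

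The remaining muscle lists were closer to even. Above 0 were 12 of 20 cytoskeletal links, 10 of 14 genes of the dystrophin complex and caveolae and 9 of 18 transcription factors. Dystrophin, DMD, was at -0.46 ± 0.29 (SE), but only 2 of its 8 probe sets that passed the filter, this one included, were below 0. The transcription factors TEAD1 and KLF4 were at 0.49 ± 0.24 and -0.40 ± 0.24.

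Markers of other cell types were read the same way. Epithelial markers were below 0 in 16 of 17, with a median of -0.33, and OLFM4, a marker of crypt cells, was at -0.80 ± 0.26 (SE, limma unadjusted p = 0.0103). Enteric neuron and glia markers were above 0 in 7 of 10, with peripherin, PRPH, at 0.34 ± 0.12 (unadjusted p = 0.017) and ERBB3, which epithelium expresses as well, at -0.87 ± 0.36 (unadjusted p = 0.0307). Markers of interstitial cells of Cajal were above 0 in 2 of 5, of pericytes in 3 of 7, of endothelium in 5 of 10, of fibroblasts in 6 of 13, of skeletal and cardiac muscle in 4 of 14 and of lymphocytes and macrophages in 5 of 9. Summed epithelial levels ran from 12.57 to 14.88 in the high group and from 14.33 to 14.99 in the low group. The 12.57 was that of high pig 1, and the other high pigs ran from 13.94 to 14.88. How far the marker differences and the count of 16 rest on high pig 1 was not tested. The part of epithelial levels in the member differences was not tested either.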

How the data were processed

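RNA of 12 ileal mucosa samples, 1 per pig, was measured on 1-colour arrays. The deposited table holds log2 values, a scale read from the values. GCOS 1.1.1 is named per the submitters' processing notes. How background was corrected, probes were summarized and arrays were normalized is not given in the sources used here, and no normalization was added. The labels gave group, sex and age. Replicate numbers were given in accession order and pair nothing.

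Probe sets were named through the platform annotation, which gives a symbol to 26426 of 47845. The 123 controls and the 30% of lowest mean (under 2.67) were left out, leaving 33405. Each probe set was fitted with limma 3.58.1 in R 4.3.3 (lmFit, eBayes) with terms for feed efficiency and sex. The difference between sexes was fitted on the 4 combinations of group and sex. Adjustment was by Benjamini-Hochberg over all probe sets kept (threshold 0.05). Correlations over 12 pigs used two-sided permutation tests with 100000 resamples (numpy 2.4.6, with ranks from scipy 1.17.1). The fit was tested on simulated data. A list's level is log2 of its summed linear values.

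Named are all members, up to 4 genes per list of smallest unadjusted p, defining genes, and the 10 genes of highest and 5 of lowest mean r with the members. These 10 and 5, and the genes nearest to SYNM and ACTA2, leave out placeholder symbols that begin with LOC, SSC or ENSS. Genes named for their r with SYNM or ACTA2 were chosen after their values were seen. Members and lists were chosen with earlier results of these data known. Alternatives were other filters, normalizations, variance models, weights, thresholds, covariates, identifier ranges, sexes alone, the mean over probe sets, and each pig left out. The number of arrays limits the precision. No probe sequence is shown. The results of 1 gene list are not reported here.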

Additional observations from a re-analysis of the deposited data

Results flagged for a closer look

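Among the 18 combinations of a gene and a feed efficiency group examined for a pig far from the other 5, ACTA2 in high pig 1 stood out. Its log2 value was 8.77, and its gap to the nearest pig was 0.632 of the range of the group, past Dixon's 95% critical value for 6 pigs. Chance marks about 1 in 20 such groups, so 1 mark among 18 is near that rate. The same pig was lowest for ACTA2 with the other probe set of the gene, at 7.93. That set read the same RNA and followed the first at r = 0.982, so it is not independent support.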

How the results depend on the processing

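No paired analysis was possible because the labels give no replicate numbers shared between groups. No member was called for feed efficiency or sex under the alternatives run. Only NEXN and DES kept the sign of their feed efficiency difference in all alternatives run. The cause of the following changes was not tested unless the alternative itself removes pigs or probe sets.

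The count of all probe sets called for sex, 11, was 7 with no filter or a trended and robust variance, 4 with the lowest 50% left out or the lower identifier range alone, 6 with the range as a term, 580 at an adjusted p under 0.1, and 5 to 417 with 1 pig left out (417 without low pig 1, 5 without high pig 4). Feed efficiency gave 1 call in females alone, and its interaction with sex 0 to 1 with 1 pig left out (1 without high pig 3). The median correlation between members was 0.53 on residuals after group and sex, and 0.33 to 0.55 with 1 pig left out (without high pig 3 and high pig 1).

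Array weights turned the feed efficiency difference of ACTA2 to 0.041 and the sex difference of ACTG2 to 0.0082, and quantile normalization turned the sex difference of DES to 0.0045. In the lower identifier range TAGLN was at -0.016 for feed efficiency. In the higher range MYH11 was at -0.015, ACTA2 at 0.12 and MYLK at -0.025. In females alone ACTA2 was at 0.0075, TAGLN at -0.074, MYLK at -0.13 and SYNM at -0.074. With high pigs 1 and 3 left out together, added after the data were seen, ACTA2 was at 0.030, MYLK at -0.046, SYNM at -0.11 and LMOD1 at 0.00080, the sex differences of MYLK and NEXN were -0.10 and -0.0050, the median correlation was 0.54, and 5 probe sets were called for sex.

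With each pig left out in turn, the number of members above 0 for feed efficiency ran from 5 to 9. The feed efficiency difference ran from -0.18 to 0.12 for ACTA2, -0.044 to 0.20 for ACTG2, -0.091 to 0.15 for TAGLN and -0.18 to 0.049 for LMOD1, and kept its sign for MYH11 (0.17 to 0.45), DES (0.07 to 0.41), MYLK (0.12 to 0.51), NEXN (0.31 to 0.57) and SYNM (0.23 to 0.86). The sex difference ran from -0.22 to 0.064 for MYH11, -0.14 to 0.098 for ACTG2 and -0.31 to 0.0041 for DES.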
